A study of Mus musculus with 4 samples.

Results

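Small mouse ES cells that had spent 6 h in N2B27, the medium that lets cells leave naive pluripotency, differed widely in the small share of their counts that came from added ERCC RNAs. Of the 24 small cells in N2B27 analysed, 22 passed limits of at least 1200000 counts on genes, at least 4400 genes detected and at most 5.2% of counts on mitochondrial genes. They were ranked by the share of ERCC counts, and the 7 cells with the highest share, called low-RNA cells here, were set against the 7 with the lowest share, called high-RNA cells, which gives 14 of the 96 cells of the series. The 8 cells in between are called middle cells. The ERCC RNAs are synthetic transcripts added to the lysate of each cell. If each cell received the same amount, which is assumed here, a large share means that the cell itself gave little RNA to the library. The names low-RNA and high-RNA stand for that, since less RNA in the cell and less RNA recovered from it cannot be told apart by ERCC share.

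The cells came from wild-type mouse ES cells grown in 2i with LIF, a medium called 2i here. Its MEK and GSK3 inhibitors, together with LIF, keep the cells naive. A gate on forward and side scatter took small cells, set for those leaving mitosis or in G1, and an ungated population was the control. Both were kept on laminin for 6 h in 2i or N2B27, and each medium had its own plate and sequencing lane. Smart-seq2, which covers whole transcripts and has no molecular identifiers, gave the libraries. Each of the 4 combinations of gate and medium is 1 sample of 24 cells, the cells of a sample are not replicates of a condition, and no p-value was computed.

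As background, a cell that has just divided carries little RNA and protein, and it makes more of both as it grows through G1 and S phase. Much of that growth goes into ribosomes, which need ribosomal proteins, processing factors in the nucleolus and modified tRNAs and rRNAs. Naive pluripotency rests on a network of transcription factors such as Nanog, Esrrb, Klf2 and Tfcp2l1, which is taken apart when 2i is withdrawn. Smart-seq2 copies the polyadenylated RNA of a single cell and amplifies the copies, so each value below is a part of a library and not a number of molecules.

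The low-RNA cells had ERCC shares from 3.51% to 6.03% with a median of 5.06%, and the high-RNA cells from 0.799% to 2.09% with a median of 1.31%. The ratio of the medians was 3.87, and there were 18.8 gene counts per ERCC count in the median low-RNA cell and 75.5 in the median high-RNA cell. These values are what the cells were chosen by and are given as a description. Just outside the groups lay middle cells at 2.72% and at 2.33%. A cell with 31680 gene counts and an ERCC share of 30.1% and another with 1107513 gene counts and a share of 8.37% were the 2 that failed the limits.

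**Figure D1:**
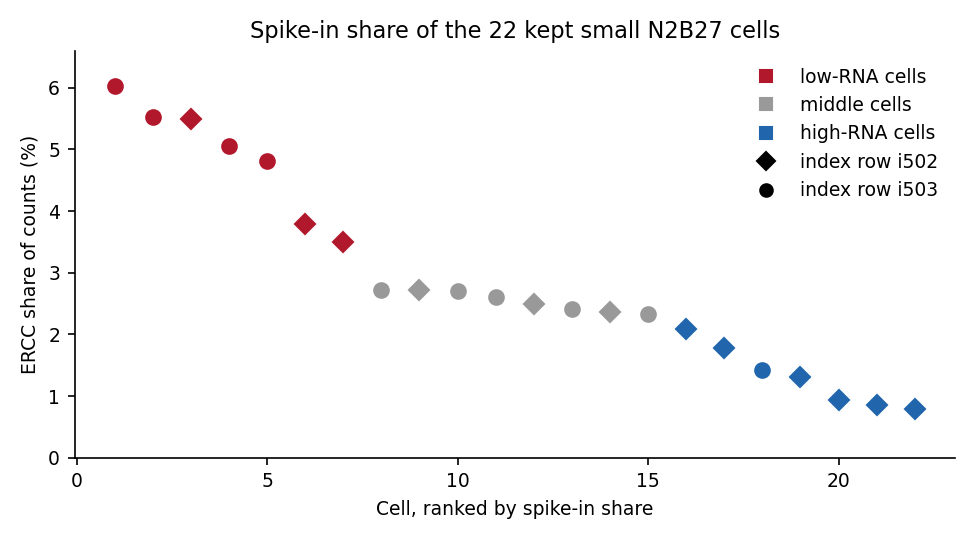
Share of ERCC counts (%) in the 22 kept small N2B27 cells, ranked from the highest share to the lowest, with color for the group and marker shape for the index row of the plate. The 7 low-RNA cells lie between 3.51% and 6.03% and the 7 high-RNA cells between 0.799% and 2.09%, and 6 of the 7 high-RNA cells are on index row i502.

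The groups were not balanced for position or depth. On the plate, 4 low-RNA cells were on index row i503 and 3 on i502, whereas 1 high-RNA cell was on i503 and 6 on i502. Gene counts ran from 1656940 to 2506663 in low-RNA cells and from 1813884 to 3616563 in high-RNA cells, so that the groups overlapped in depth. Reads that overlapped more than 1 gene and were left uncounted made up 4.89% to 5.66% of all counted reads in low-RNA cells and 7.09% to 9.80% in high-RNA cells, and reads that were not aligned made up 12.1% to 13.9% and 8.51% to 10.9%. Neither range overlapped between the groups. The mitochondrial share was 1.71% to 4.49% in low-RNA cells and 1.82% to 3.10% in high-RNA cells. What part these library properties had in the values below was not tested.

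The cells carried genes of ES cells, though not each of them in every cell. Zfp42, also known as Rex1, Utf1 and Dppa5a had at least 10 counts in 22 of 22 kept cells, and Pou5f1, which encodes OCT4, in 20. The other ES cell markers reached 10 counts in fewer cells, Nanog in 17, Sox2 in 15, Esrrb in 13 and Tdgf1 in 10. The 5 defining markers of feeder fibroblasts, among them Col1a1 and Thy1, had no count in any of the 22 cells, and the summed level of a list of 12 such genes was at most 52.7 CPM, where CPM scales each cell to the same total of gene counts. Of the markers of other lineages, Pdgfra, Sox7, Elf5, Sox1 and Neurog2 and the genes Zscan4d, Zscan4f, Zfp352 and Tcstv1 of 2-cell-like cells were also at 0. Pax6 reached 10 counts in 9 cells, Gata3 in 3, Gata4 in 2, and Sox17, Cdx2, Hand1 and Krt7 in 1 each. The summed level of 13 primitive endoderm genes was 0.604 to 836 CPM in low-RNA cells and 123 to 681 CPM in high-RNA cells, that of 11 trophectoderm genes 0 to 525 CPM and 0.684 to 400 CPM, and that of 9 neural genes 0 to 46.1 CPM and 0 to 89.1 CPM. What part such transcripts had in the comparisons was not tested.

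Cell cycle phase moved with RNA content. The cyclone classifier called 4 low-RNA cells G1 and 3 S, and it called 5 high-RNA cells S and 2 G2M. No high-RNA cell was called G1. The share of low-RNA cells called G1 was 57.1%, with an exact 95% binomial interval of 18.4% to 90.1% that covers counting error only. Of the middle cells 3 were called G1, 4 S and 1 G2M. When each cell was thinned to 1600000 gene counts, 5 low-RNA cells were called G1 and 2 S, and the calls of the other groups stayed the same in number. Phase calls read the same counts as the comparisons below, so they are not an independent measure of the cycle.

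Low-RNA cells had far fewer genes detected. At 1600000 gene counts per cell, genes with at least 10 counts numbered 2547 to 3280 in low-RNA cells, with a median of 3159, and 4458 to 6929 in high-RNA cells, with a median of 5554. The ratio of the medians was 0.569, and no low-RNA cell reached the lowest high-RNA cell. The middle cells had 3760 to 5087 such genes and filled the gap. With a single count as the limit, 5549 to 6427 genes were detected in thinned low-RNA cells and 6703 to 9138 in high-RNA cells, a ratio of medians of 0.761. The limit of 10 counts is given first because the failed cell with 31680 gene counts still had 3935 genes with at least 1 count but only 264 with at least 10.

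**Figure D2:**
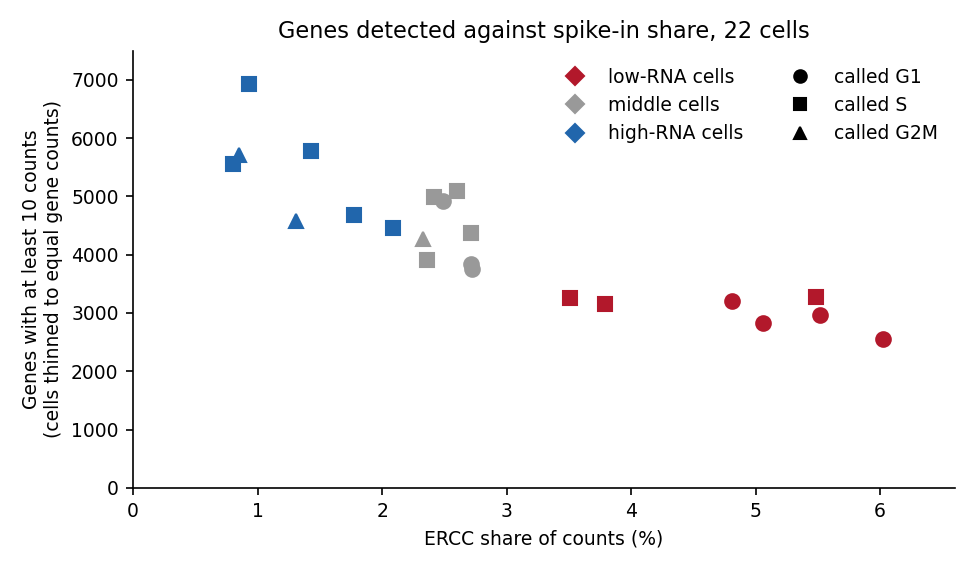
Number of genes with at least 10 counts after thinning to 1600000 gene counts per cell (y axis) against the ERCC share in percent (x axis) for 22 small N2B27 cells, with color for the group and marker shape for the phase called by cyclone. The low-RNA cells lie between 2547 and 3280 genes, the middle cells between 3760 and 5087 and the high-RNA cells between 4458 and 6929.

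Over the 22 cells Spearman's rho between ERCC share and this number was -0.881. Within the 8 middle cells alone, whose shares were close together, it was -0.286. The points share 1 plate and lane, and gene counts enter the share, so both values are a description. Within index row i503, 5 cells with the higher shares had 2547 to 3760 genes and 5 with the lower shares 3844 to 5787. Within row i502, where the cells were divided 6 to 6, the ranges were 3159 to 4917 and 4458 to 6929 and overlapped. Among the 12 cells called S, again divided 6 to 6, they were 3159 to 5087 and 3915 to 6929, with a ratio of medians of 0.747 for a 1.94-fold difference in median ERCC share.

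The shortfall reached well into the more highly expressed genes. Genes were grouped by their mean level in CPM in ungated N2B27 cells, which took no part in the split. Of genes at 100 to 300 CPM there, 49.7% had at least 10 counts in a thinned low-RNA cell and 85.1% in a high-RNA cell. At 300 to 1000 CPM the shares were 77.6% and 97.5%, and at 1000 to 3000 CPM 97.8% and 100%. At 30 to 100 CPM they were 27.8% and 58.2%, and among the genes that did reach 10 counts the median level was 132 CPM in low-RNA cells and 76.7 CPM in high-RNA cells. These medians are over different genes, since each group has its own set that reached 10 counts.

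**Figure D3:**
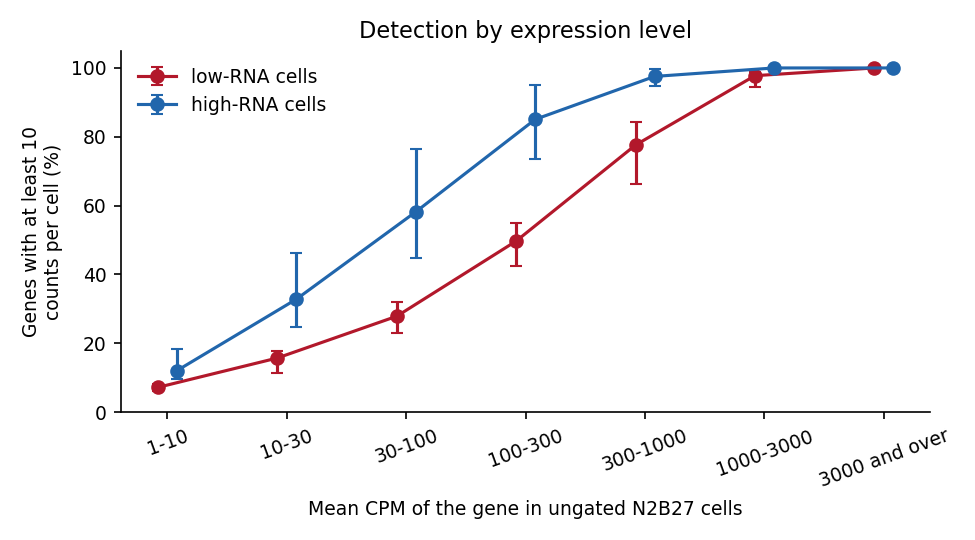
Percentage of genes with at least 10 counts per cell after thinning (y axis), for genes grouped by mean CPM in ungated N2B27 cells (x axis), in 7 low-RNA and 7 high-RNA cells. Points are means over the cells and bars run from the lowest to the highest cell. The ranges of the groups are apart in each class up to that of 1000 to 3000 CPM, where the means are 97.8% and 100%, and both groups are at 100% above it.

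Per gene, the ratio was taken as log2 of the mean CPM of low-RNA cells plus 1 over the mean CPM of high-RNA cells plus 1, for the 6423 genes with a mean of at least 20 CPM over the 22 cells. A positive value means a larger part of the library in low-RNA cells. Because CPM values are parts of a whole, a gene can take a larger part of a library while the cell holds fewer copies. The median ratio was -0.15, with quartiles at -1.73 and 0.90. A ratio of at least 1 was found for 1440 genes, 22.4% of those compared, and a ratio of at most -1 for 2174, or 33.8%. Ratios above 0 made up 46.6%. In the text, higher and lower in counts of a list mean these limits of 1 and -1. Scaled by the ERCC counts instead of the gene counts, 280 genes were higher and 4996 lower. With the means taken over log2 values of cells, 663 were higher and 3667 lower. The contrast of 7 and 7 cells of 1 sample gives no error on the main counts, which ran from 1385 to 1546 and from 2140 to 2382 when each of the 14 cells was left out in turn.

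Among the compared genes, far more were found only in high-RNA cells than only in low-RNA cells. Being compared took a mean of 20 CPM over all kept small N2B27 cells, middle cells included. A gene found only in low-RNA cells meets that limit less easily than one shared by middle and high-RNA cells. The cells were not thinned here, and median gene counts were 2170077 in low-RNA and 2862396 in high-RNA cells. What part the limit and the depth had in these numbers was not tested. At least 10 counts were found in all 7 high-RNA cells for 1858 of the compared genes and in all 7 low-RNA cells for 769, and 722 genes met the limit in all 14 cells. No low-RNA cell had 10 counts for 947 genes, and no high-RNA cell for 143. For 112 genes all 7 high-RNA cells but at most 1 low-RNA cell had 10 counts, and for 0 genes was it the other way round. The 722 genes found in all 14 cells had a median log2 ratio of 0.54, a value that their choice by detection in the low-RNA cells favors.

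All 7 low-RNA cells lay below all 7 high-RNA cells for 81 genes, 1.26% of those compared, and above them for 31 genes, or 0.483%. With at least 90% of pairs of cells in the same order, 311 genes were lower (4.84%) and 112 higher (1.74%). Of the 81, 74 were protein coding and 56 had 10 counts in none of the low-RNA cells. Of the 31, 18 were pseudogenes, against 536 pseudogenes among all 6423 genes, and 30 had at least 10 counts in all 7 low-RNA cells. The transcripts of the 31 had a median length of 471 bases, those of the 81 of 2538 bases and those of all compared genes of 2551.5 bases. Processed pseudogenes are near copies of spliced transcripts, and the counting could divide reads between the copies, so their values are uncertain.

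Among the 12 genes with the lowest ratios and at least 90% of pairs in the same order were a pair of ribosome assembly genes and 3 that act on tRNA. Ppan, a nucleolar factor of ribosome assembly, lay at 0 to 2.60 CPM in low-RNA cells with a median of 0.604 and at 150 to 573 CPM in high-RNA cells with a median of 367. Its 12 counts in the 7 low-RNA cells together, with an exact 95% Poisson interval of 6.2 to 21, faced 7526 in the high-RNA cells, and its log2 ratio was -7.71. Nop2, which methylates rRNA, had 0 to 1.60 CPM in low-RNA cells and 153 to 767 CPM in high-RNA cells, a log2 ratio of -7.62. Neither gene had 10 counts in any low-RNA cell, and both had them in all 7 high-RNA cells.

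The 3 genes that act on tRNA were chosen by their low ratios and stand for no wider group. Mars, which loads methionine onto its tRNA, had at most 2.41 CPM in low-RNA cells and 194 to 595 CPM in high-RNA cells (log2 ratio -7.39). Nsun2, a methyltransferase of tRNA, had 1.30 to 3.02 CPM and 46.2 to 1315 CPM (log2 ratio -7.33). Trmt1, another tRNA methyltransferase, had at most 2.33 CPM in low-RNA cells, and it reached 10 counts in 6 of 7 high-RNA cells, with a median of 257 CPM. The first 2 of these genes did not overlap between the groups, and the high-RNA cell with the least Trmt1 lay within the range of the low-RNA cells.

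The other genes at the lower end had varied roles. Map2k1, which encodes MEK1, the kinase that 2i medium inhibits, had 0 to 2.20 CPM in low-RNA cells and a median of 349 CPM in high-RNA cells, 6 of which reached 10 counts. Alpl, the alkaline phosphatase used as a stain for ES cells, had a median of 1.40 CPM in low-RNA cells and of 549 CPM in high-RNA cells. Tcf3, the E2A transcription factor, had at most 2.41 CPM in low-RNA cells and 14.5 to 602 CPM in high-RNA cells. Add1, an adducin of the membrane skeleton, had 4 counts in all low-RNA cells together, and 58.1% of its summed CPM in high-RNA cells came from a single cell. Blmh, Traf7 and the pseudogene Gm9816 completed the 12 genes, whose log2 ratios ran from -7.71 to -7.17. Their means in low-RNA cells, from 0.276 to 2.56 CPM, were near the 1 CPM added before the ratio. The size and order of these ratios therefore depend on that addition, and with counts under 10 set to 0 Ppan had -8.57. Of the 12, 11 had 10 counts in no low-RNA cell. The mean of the middle cells was between the means of the other groups for 12 of 12. Among the 12 cells called S, divided 6 to 6 by ERCC share, the ratios of these genes were much smaller. They ran from -3.18 for Map2k1 to -0.86 for Tcf3, with -1.11 for Ppan and -0.95 for Nop2. The 6 S cells of higher share held the 3 low-RNA cells called S and also middle cells. In those 3 low-RNA cells Ppan had 0 to 2.60 CPM, and in the 5 high-RNA cells called S 150 to 573 CPM. Nop2 had 0.433 to 1.60 CPM and 153 to 298 CPM in the same cells.

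Of the 12 genes with the highest ratios under the same limit on pairs, 9 had 10 counts in all 7 low-RNA cells and 7 in all 7 high-RNA cells. Uqcc2, an assembly factor of respiratory complex III, had 226 to 1186 CPM in low-RNA cells with a median of 486, and 13.0 to 203 CPM in high-RNA cells with a median of 157 (log2 ratio 2.23). Uchl3, a ubiquitin hydrolase, had 109 to 441 CPM and 34.2 to 86.0 CPM (log2 ratio 2.23). The groups did not overlap for either gene. Fcf1, a processing factor of the small ribosomal subunit, Txndc9, a thioredoxin domain protein, and Lsm5, a subunit of the ring that binds U6 snRNA, had log2 ratios of 2.39, 2.25 and 2.19 and overlapped between the groups.

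The highest ratio under this limit on pairs rested on 1 cell. Lefty2, an antagonist of NODAL, had a log2 ratio of 5.58 and no overlap between the groups, but 98.7% of its summed CPM in low-RNA cells came from a single cell with 357 CPM and the median low-RNA cell had 0.798 CPM. Without that cell the log2 ratio was 0.71. Upf1, the helicase of nonsense-mediated decay, had a median of 18.1 CPM in low-RNA cells and 1.10 CPM in high-RNA cells. Otud4, a deubiquitinase, had medians of 261 CPM and 0.840 CPM. The pseudogenes Gm11966, Gm6798 and Gm11221 were also among the 12, as was mt-Nd6, whose reads cannot be told from antisense reads because Smart-seq2 keeps no strand. The mean of the middle cells lay between the other means for 8 of these 12 genes.

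**Figure D4:**
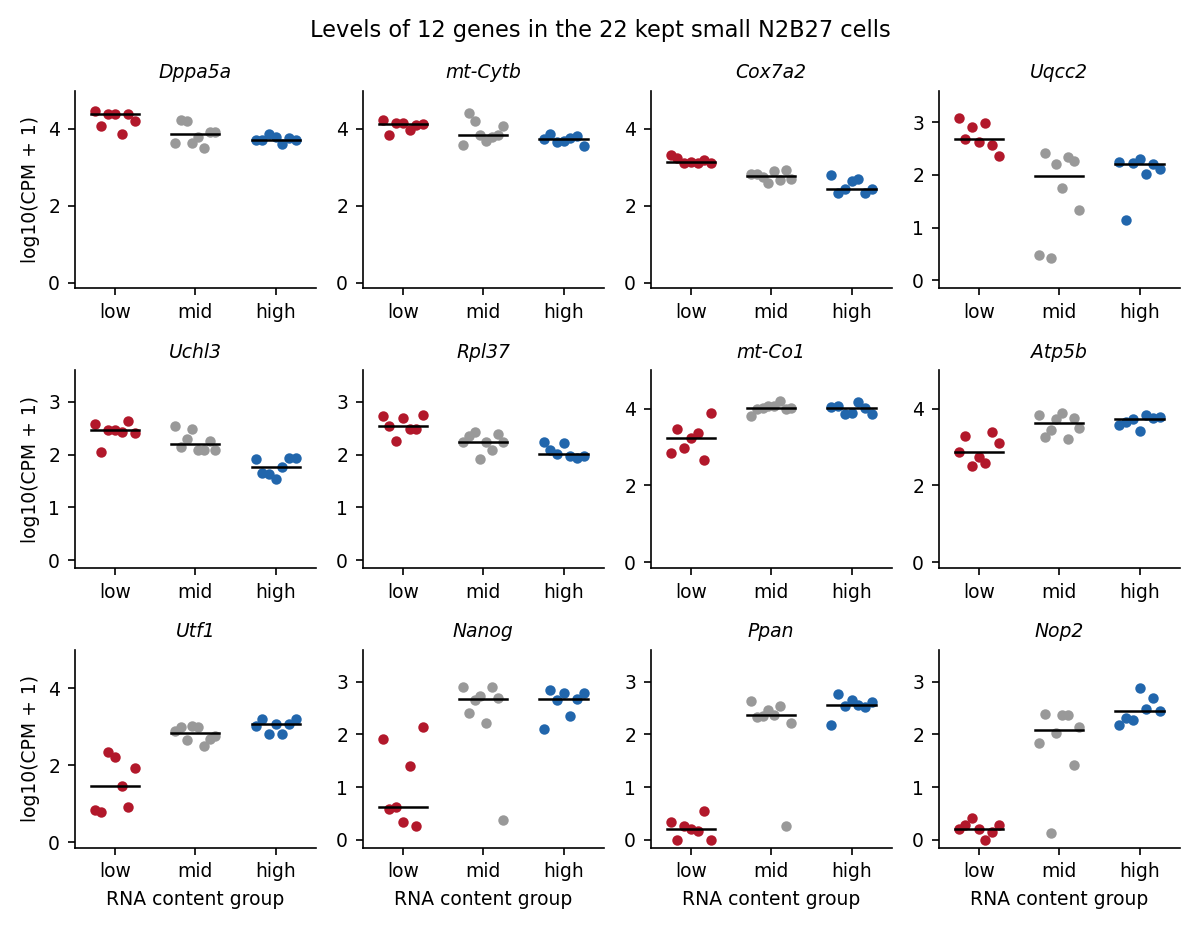
Level of 12 genes as log10 of CPM plus 1 (y axis) in each of the 22 kept small N2B27 cells, by RNA content group (x axis: 7 low-RNA, 8 middle and 7 high-RNA cells), with black bars at the median. The 12 panels were chosen after the values were seen. For Ppan and Nanog 7 of the 8 middle cells stand near the high-RNA cells, and for Cox7a2, Uchl3 and Rpl37 the median of the middle cells stands between those of the other groups.

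The median GC content of the transcript was 44.4% for the 12 genes of the upper end and 54.3% for those of the lower end, although Uqcc2 with 58.8% and Upf1 with 57.9% at the upper end were richer in GC than all of the lower end but Ppan and Tcf3. The coding starts of 4 named genes are printed as examples of the extremes, and they were picked for their GC content. They are the nuclear protein-coding genes of the upper end with the lowest GC content and of the lower end with the highest, among genes with 10 counts in all 7 cells of the higher group. Each line holds the first 120 coding bases from GENCODE M21 (GRCm38), 5′ to 3′ on the coding strand, with G and C in capitals.
Lsm5: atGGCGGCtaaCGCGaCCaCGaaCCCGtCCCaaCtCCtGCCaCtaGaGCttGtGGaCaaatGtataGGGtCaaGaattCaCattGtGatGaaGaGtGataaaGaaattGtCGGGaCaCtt
Txndc9: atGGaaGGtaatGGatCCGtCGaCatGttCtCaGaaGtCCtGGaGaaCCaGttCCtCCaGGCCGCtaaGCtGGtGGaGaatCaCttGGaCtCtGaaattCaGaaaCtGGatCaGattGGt
Tcf3: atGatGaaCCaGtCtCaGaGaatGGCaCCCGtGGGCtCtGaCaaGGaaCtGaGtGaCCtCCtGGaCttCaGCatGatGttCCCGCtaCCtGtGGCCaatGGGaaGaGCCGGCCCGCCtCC
Ppan: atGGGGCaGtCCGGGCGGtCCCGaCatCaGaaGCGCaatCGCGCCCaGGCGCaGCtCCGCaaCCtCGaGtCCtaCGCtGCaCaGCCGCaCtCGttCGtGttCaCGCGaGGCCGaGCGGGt

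Of these 120 bases, 57 were G or C in Lsm5 (chr6:56701063-56704710, minus strand), 58 in Txndc9 (chr1:37985189-37997893, minus strand), 70 in Tcf3 (chr10:80409514-80433647, minus strand) and 82 in Ppan (chr9:20888175-20892178, plus strand). The GC content of the whole coding sequence was 40.7%, 46.3%, 63.2% and 59.9%, and that of the transcript 36.6%, 40.0%, 61.0% and 59.7%.

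Across all compared genes the ratio also fell with GC content. The 31 higher genes without overlap did not share the low GC content of the upper end. Their median was 50.4%, against 49.4% for all compared genes and 54.7% for the 81 lower genes without overlap. With the 6410 genes of known GC content divided into 10 classes of 641, the median log2 ratio went from 0.51 in the class with the lowest GC content, up to 41.5%, to -1.10 in the class with the highest, from 57.2%. Ratios of at least 1 were found for 34.6% of genes in the lowest class and 12.6% in the highest, and ratios of at most -1 for 18.9% and 52.1%. In low-RNA cells the share of cells with at least 10 counts per gene went from 44.5% in the lowest class to 31.9% in the highest, while in high-RNA cells it went from 63.2% to 68.3%. This division was made after the data had been seen. Genes are not independent of one another, and GC content goes with gene function and length.

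The gradient was present at each level and each length. With genes of like level divided into 4 classes of GC content, the median log2 ratio of the highest minus the lowest class was -2.27 among genes with a mean of 20 to 50 CPM, -1.01 at 100 to 300 CPM and -0.40 above 1000 CPM. With genes of like transcript length, in 4 classes of length, it ran from -0.67 in the shortest to -2.73 in the third. The shortest class, up to 1497 bases, had a median ratio of 0.38, the next 2 had -0.60 and -0.67, and the longest had 0.09. Among cells called S the difference between the lowest and the highest of the 10 GC classes was -0.67, and with cells compared within index rows -0.70, against -1.61 for the 7 and 7 cells. In the division of S cells and of rows the groups were also closer in RNA content.

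**Figure D5:**
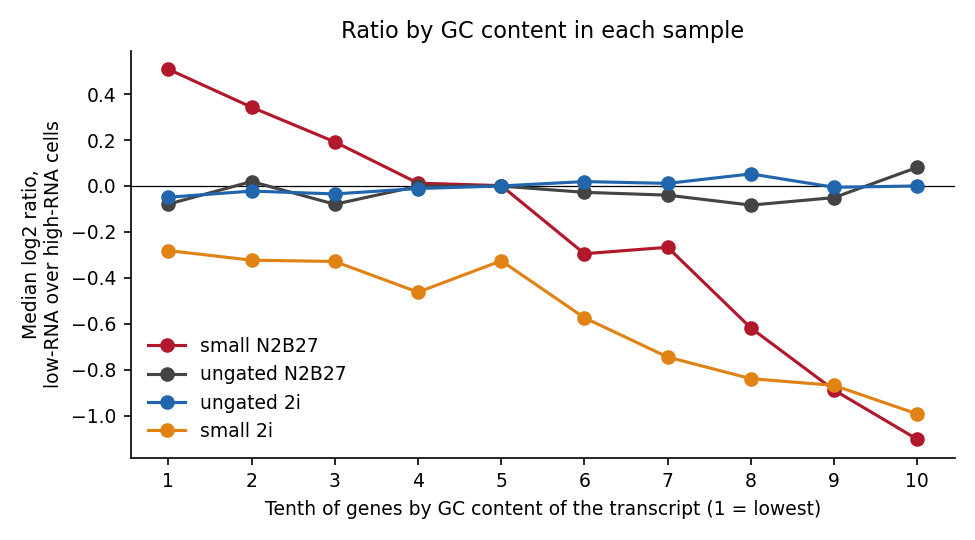
Median log2 ratio of low-RNA over high-RNA cells (y axis) in 10 classes of 6410 genes by GC content of the transcript (x axis, 1 = lowest), for small N2B27 cells (7 and 7), small 2i cells (6 and 6) and ungated cells of both media (7 and 7 each). In small N2B27 cells the median goes from 0.51 to -1.10, in small 2i cells from -0.28 to -0.99, and in ungated cells the medians stay between -0.08 and 0.08.

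The ERCC RNAs served as a reference that no cell made. There were 10 ERCC RNAs with at least 1% of ERCC counts, 94.2% of them together, and all 10 were detected in all 14 cells. With 17030 to 145575 ERCC counts per cell, RNAs at that share were bound to be detected, so this says nothing of rarer RNAs. When each cell was thinned to 17030 ERCC counts, 19 to 26 ERCC RNAs were detected in low-RNA cells and 18 to 29 in high-RNA cells. As parts of the ERCC counts, the 10 most abundant had log2 ratios between low-RNA and high-RNA cells from -1.004 to 0.48, with a median of -0.01.

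Among gene groups, each count is to be read against the 22.4% of all compared genes that were higher and the 33.8% that were lower. Most list medians were nearer 0 among the 12 S cells, whose side of higher ERCC share included middle cells beside low-RNA cells. Relative to the median of all genes, oxidative phosphorylation went from 1.08 to 0.61 and cytoplasmic ribosomal proteins from 0.67 to 0.27. Glycolysis went from -1.37 to -0.66, cholesterol genes from -1.08 to -0.33 and the integrated stress response from -1.48 to -0.38. Other lists moved away from 0. Replication-dependent histone genes went from -0.69 to -1.83 and translation genes from -0.00025 to -0.33. The naive network went from 0.067 to 0.17 and p53 targets from -0.084 to 0.44.

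Nuclear genes of oxidative phosphorylation, the chain that makes ATP in mitochondria, stood highest in low-RNA cells. Of 72 compared members 32 had a ratio of at least 1 and 2 of at most -1, with a median log2 ratio of 0.93 against -0.15 for all genes. Cox7a2, a subunit of complex IV, had 1260 to 2154 CPM in low-RNA cells and 210 to 639 CPM in high-RNA cells (log2 ratio 2.07, no overlap). Atp5o, a subunit of ATP synthase, had a ratio of 1.93. Atp5b, the catalytic subunit of the same enzyme, went the other way, with 312 to 2408 CPM in low-RNA cells and 2578 to 6762 CPM in high-RNA cells (log2 ratio -2.19, no overlap), and Ndufa8 of complex I had a ratio of -1.82. The summed level of the list was 27015 to 43243 CPM in low-RNA cells and 23560 to 27933 CPM in high-RNA cells.

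Genes of cytoplasmic ribosomal proteins had a median of 0.52. Of 72 compared members 12 were higher, a smaller share than the 22.4% of all genes, and 1 was lower. Rpl35 had 85.5 to 277 CPM in low-RNA cells and 25.7 to 56.7 CPM in high-RNA cells, a log2 ratio of 2.10, and Rpl37 a ratio of 1.70. The groups did not overlap for either gene. Rpl11 had -1.01 and Rpl3 -0.96. Ribosomal protein genes have many processed copies, so their levels are uncertain. The members of both lists have short transcripts, with median lengths of 941.5 bases for ribosomal proteins and 913 for oxidative phosphorylation. Centered within the 10 GC classes, the medians of the lists were 0.72 and 1.04.

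Factors that build ribosomes were lower about as often as all genes. Of 53 compared genes of ribosome biogenesis and RNA polymerase I, 6 were higher and 19 lower in low-RNA cells, where 33.8% of all genes were lower, with a median of -0.60. Besides Ppan and Nop2, Heatr1 had 2.14 and Noc3l 3.48, the latter with 10 counts in 1 low-RNA cell and 1 high-RNA cell. Of 35 genes of translation initiation and elongation 2 were higher and 6 lower, with a median of -0.15, equal to that of all genes.

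Genes of glycolysis and of cholesterol synthesis and uptake lay mostly on the lower side. Of 15 glycolysis enzymes 10 had a ratio of at most -1 and 0 of at least 1, and the median was -1.52. The summed level of the list was 2525 to 10398 CPM in low-RNA cells and 7433 to 16243 CPM in high-RNA cells. Aldoc at -5.51 and Pfkm at -4.60 had 10 counts in only 2 and 3 high-RNA cells, while Pgk1 had -0.11 and Ldhb 0.16. Of 18 genes of cholesterol synthesis and uptake 10 were lower and 1 higher, with a median of -1.24. Mvd, the decarboxylase that makes isopentenyl pyrophosphate, had 0 to 1.79 CPM in low-RNA cells and 118 to 305 CPM in high-RNA cells (log2 ratio -7.04, no overlap). Lss, lanosterol synthase, had a ratio of -6.78. Centered within the 10 GC classes, the medians of glycolysis and cholesterol genes were -1.05 and -1.10. In small 2i cells divided by ERCC share the list medians were -0.22 and -0.76, against -0.59 for all compared genes there.

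Stress genes differed between lists. Of 12 compared genes of the integrated stress response 8 had a ratio of at most -1 and 0 of at least 1, with a median of -1.63 that became -0.81 after centering by GC content. Aldh18a1, an enzyme of proline synthesis, had -6.42, and the asparagine synthetase Asns, found in all 14 cells, had 0.13. Chac1 with -4.81 rested on 1 high-RNA cell. Of 20 heat shock and chaperone genes 8 were lower, near the share of 33.8% of all genes, and 0 higher, with a median of -0.72. Hspb1, a small heat shock protein, had 0.931 to 492 CPM in low-RNA cells and 252 to 1404 CPM in high-RNA cells, a log2 ratio of -2.57, and the mitochondrial chaperone Hspa9 had -1.65.

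Mitochondrial transcripts differed in direction, although they are cut from common precursors. mt-Co1, the core of complex IV, had 467 to 7645 CPM in low-RNA cells and 7151 to 14505 CPM in high-RNA cells (log2 ratio -2.06, and -0.41 among S cells). mt-Cytb, of complex III, had 6975 to 16927 CPM and 3621 to 7451 CPM (log2 ratio 1.21). The ranges overlapped slightly for both genes, which had GC contents of 39.9% and 39.1%. Of 9 compared mitochondrial mRNAs 3 were higher and 1 lower. Such ratios show that these transcripts differed unequally and not which of them was constant.

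The naive network showed no common direction. Of 13 compared genes 3 were higher and 4 lower, with a median of -0.08. Centered within the 10 GC classes the median was 0.74, with 7 genes above 0 and 6 below. The summed level of the list was 12112 to 32535 CPM in low-RNA cells and 5688 to 11251 CPM in high-RNA cells, without overlap. That sum includes Dppa5a, whose levels are given below. Nanog had 0.866 to 139 CPM in low-RNA cells, 3 of which reached 10 counts, and 123 to 683 CPM in high-RNA cells, all 7 of which did (log2 ratio -3.60). Tfcp2l1 had 10 counts in 0 low-RNA and 4 high-RNA cells (log2 ratio -6.19). Dppa5a, a small RNA-binding protein of pluripotent cells, had 7255 to 28724 CPM in low-RNA cells and 4020 to 7460 CPM in high-RNA cells (log2 ratio 1.82), and a single pair of cells overlapped. Zfp42 had 86.1 to 2294 CPM and 572 to 1910 CPM, a log2 ratio of -0.08. Among S cells Nanog had -0.59. Esrrb had 0.84, which ran from -1.515 to 1.50 when single cells were left out, Klf2 had -0.37, and Dppa3 with 5.52 rested on 1 low-RNA cell.

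Core pluripotency genes were likewise divided. Of 14 compared genes 3 were higher and 3 lower, with a median of 0.04 that became 0.49 when centered by GC content. Utf1, a chromatin factor of pluripotent cells, had 5.12 to 221 CPM in low-RNA cells and 630 to 1633 CPM in high-RNA cells (log2 ratio -3.94), and Mybl2, a transcription factor of cycling cells, had 1.40 to 34.1 CPM and 216 to 911 CPM (log2 ratio -5.17). The groups did not overlap for either gene. Among S cells Utf1 had -1.19 and Mybl2 -0.26. Pou5f1 had 0.22. Sox2 had 2.13, but 0.92 among S cells and 0.45 without 1 cell, and Rif1, a factor of replication timing, had 2.01 and 0.15 among S cells. The DNA methyltransferase Dnmt3b and the signaling ligand Nodal belong to the list of formative and early differentiation genes, and their values are not given here. Of that list 5 genes were compared, 3 lower and 1 higher, with a median of -2.07. Relative to all genes, the list went from -1.92 to -0.48 among S cells. Of 11 target genes of ERK signaling 5 were lower and 2 higher, with a median of -0.51, which became -0.02 when centered by GC content.

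Cell cycle genes did not follow the phase calls as groups. Of 44 genes of G1/S and S phase 6 were higher and 12 lower in low-RNA cells, with a median of 0.08. Of 56 genes of G2/M and mitosis 7 were higher and 17 lower, with a median of -0.24. Exo1, an exonuclease of DNA repair, had -5.97 and Ubr7 -4.26, while Rrm1, a subunit of ribonucleotide reductase, had 1.99 and Cdc45, of the replicative helicase, 2.24. Nek2 and Tmpo, at -6.63 and -5.75, had 10 counts in no low-RNA cell, and Cenpf and Hmmr, at 3.90 and 3.49, had them in 3 and 1. Cdk1 had -0.03 and the licensing factor Cdt1 -1.13. Of 29 genes of abscission, the last step of division, and of the ESCRT machinery that performs it, 10 were lower and 5 higher, with a median of -0.70. Cep55, which recruits that machinery, had -2.71 with 10 counts in 1 low-RNA and 4 high-RNA cells, and Pdcd6ip, which encodes ALIX, had -0.65, which ran from -5.12 to 0.25 when single cells were left out.

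The 31 and 81 genes without overlap were then followed in cells that took no part in choosing them. Small 2i cells came from another plate and lane, and 12 of them passed the limits, with ERCC shares from 0.0673% to 40.9%. Divided 6 to 6 by ERCC share, 28 of the 31 genes had a log2 ratio above 0, against 35.6% of all compared genes, and 25 had one of at least 1, against 14.7%. Of the 81 genes 68 were below 0, against 64.2% of all genes, and 32 at or below -1, against 41.3%. For the 31 genes these counts stand above the background of that sample, and for the 81 genes the count at or below -1 is under it. The comparison in small 2i cells was added after the data had been seen.

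Counted per cell, fewer of the 81 genes were found where ERCC share was high in small 2i cells too, as was true of all genes. The 81 genes were chosen by the order of low-RNA and high-RNA N2B27 cells, so their values in those cells are a description. Of the 81 genes, 12 to 17 had at least 10 counts in each low-RNA N2B27 cell, 45 to 70 in the middle cells and 76 to 81 in the high-RNA cells. In small 2i cells they numbered 9 in the cell with the highest ERCC share, 40.9%, then 21, 16, 36, 64 and 43 with falling share, and 56 to 81 in the 6 cells of lower share. Spearman's rho over these 12 cells, which share a plate and lane and differ in depth, was -0.972. Over all genes, those with at least 10 counts numbered 1143 in the cell with the highest share and 11346 in the cell with the lowest, so that these counts are not particular to the 81. Of the 56 genes with under 10 counts in each low-RNA N2B27 cell, 1 to 39 had 10 counts in the 6 small 2i cells of higher share and 33 to 56 in the others.

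The 31 higher genes were also chosen by the order of low-RNA and high-RNA N2B27 cells, so their sums in those cells are a description. The summed level of the 31 higher genes was 15749 to 22472 CPM in low-RNA N2B27 cells, 6777 to 11596 CPM in middle cells and 5276 to 8483 CPM in high-RNA cells. In the 6 small 2i cells of higher ERCC share it was 4979 to 22154 CPM with a median of 17297, and in the 6 of lower share 4199 to 9341 CPM with a median of 5708. The largest mean level among the 31 in low-RNA N2B27 cells was that of Sub1, a transcription coactivator, which had log2 ratios of 1.44 there and 1.31 in small 2i cells. Rpl35 had a ratio of 2.10 in both samples, Cox7a2 had 1.54 in small 2i cells, Uqcc2 2.86 and Uchl3 2.00. Of the 81, Atp5b had -1.14 in small 2i cells, while Mvd with 0.23 and Mybl2 with 0.14 did not share the sign. Outside both sets, Dppa5a had 1.63 there, mt-Co1 -2.11 and Nanog -2.07.

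Ungated cells gave a different picture at a narrower range of RNA content. Their ERCC shares ran from 0.744% to 1.90% in N2B27 and from 0.718% to 2.42% in 2i, and the medians of 7 and 7 cells differed 1.64-fold and 1.82-fold. The 31 higher genes had median log2 ratios of 0.05 and 0.20 there, and the 81 lower genes of 0.00 and 0.03. Of the 31, 17 and 25 were above 0, where 48.5% and 49.7% of all genes were, and of the 81, 39 and 36 were below 0, where 51.1% and 50% were. A ratio of at most -1 was found for 6 and 3 of the 81 genes, where 15.9% and 9.48% of all genes had one, and a ratio of at least 1 for 0 and 1 of the 31, where 12.8% and 7.92% of all genes had one. At least 58 of the 81 genes had 10 counts in each ungated N2B27 cell and at least 74 in each ungated 2i cell. Genes with at least 10 counts after thinning still differed, with medians of 4825 in low-RNA and 5977 in high-RNA ungated N2B27 cells, a ratio of 0.807. In ungated 2i cells the ratio was 0.884, with 5 high-RNA cells deep enough to be thinned.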

How the data were processed

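Single mouse ES cells were read by Smart-seq2 in 4 samples of 24 cells. The authors trimmed reads with Trim Galore 0.4.4, aligned them with GSNAP to mm10 and counted them per gene with HTSeq, and deposited raw counts per cell, with 92 ERCC RNAs as further features. The names and versions are from the submitters' processing notes and the study's methods. In the 22 kept cells, 73.9% of all counted reads were on genes, 2.09% on ERCC RNAs, 5.15% on no feature, 6.84% ambiguous and 11.1% not aligned, and only gene counts entered CPM. Gene counts per kept cell ran from 1656940 to 3616563, and PCR copies make counting intervals cover counting error only. The study's DESeq2 test over cells was not repeated, because the cells are 1 sample and not replicates.

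CPM, ratios and detection were computed in Python 3.11.15 (numpy 2.4.6, scipy 1.17.1, pandas 2.3.3), phases and size factors in R 4.3.3 (scran 1.30.0 cyclone, DESeq2 1.42.0). Thinning to 1600000 gene counts used seed 1. The 12 named genes per direction have a mean of at least 20 CPM, at least 90% of pairs of a low-RNA and a high-RNA cell in the same order, and the largest log2 ratios with a pseudocount of 1. The genes drawn by cell and the base composition classes were chosen after the data had been seen. The members and gene lists were chosen with earlier results of these data known. Symbols, positions and transcripts are from GENCODE M21 (GRCm38), which named 45143 of 46078 gene rows; GC content is that of a gene's longest protein-coding transcript where it has one. The scripts were tested on simulated data. Some members of the lists are not reported here by name.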

Additional observations from a re-analysis of the deposited data

How the results depend on the processing

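No paired analysis was possible because the cells of both groups are single cells of 1 sample, and a shared index column or row marks only a position on the plate. The median log2 ratio of -0.15 became 0.085 with scran size factors, -2.18 with ERCC size factors, -0.025 with a filter of 50 CPM, -1.39 with means of log2(CPM + 1) and 0 by construction when centered by GC content, and it ran from -0.26 to -0.11 when single cells were left out. The 1440 higher genes became 280 with ERCC size factors, 2479 without a filter, 789 with a filter of 50 CPM and 663 with means of log2 values, and the 2174 lower genes became 4996, 5306, 1046 and 3667. The ratio of genes with at least 1 count, 0.747 without thinning, became 0.863 with 9 cells per group, 0.909 among S phase cells, 0.559 with at least 10 counts and 0.569 with these thinned, and ran from 0.743 to 0.781 when single cells were left out.

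Among S phase cells, Upf1 turned to -0.77, Dppa3 to -3.34, Rpl11 to 1.19, Chac1 to 0.12, Exo1 to 0.26, Cdc45 to -0.11 and Hmmr to -6.01. When single cells were left out, Dppa3 ran from -2.99 to 6.31, Chac1 from -5.03 to 0.18, Noc3l from -1.89 to 5.17 and Hmmr from -2.49 to 4.56. Leaving out single cells also turned other ratios under 1, such as those of Esrrb and Pdcd6ip. The S phase cells of higher ERCC share were the 3 low-RNA cells called S and middle cells. What part this had in the values that moved was not tested. Of the 24 named genes, 20 stayed past a ratio of 1 in the same direction among S phase cells, most with much smaller ratios, and 23 to 24 did when single cells were left out. Relative to all genes, the list of RNA polymerase II turned from 0.42 to -0.19 among S phase cells and that of p53 targets from -0.084 to 0.44, and 17 of 20 lists kept their side. Of the 1440 and 2174 genes, 710 and 1037 were also called among S phase cells and 773 and 1532 within index rows, where the groups were closer in RNA content. Setting counts under 10 to 0, centering by GC content and thinning before the limit of 10 counts were chosen after seeing the data. Genes under a mean of 20 CPM were not compared.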

Other observations

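Other gene lists divided without a common direction. Of 18 p53 target and apoptosis genes 7 were higher and 6 lower in low-RNA cells. Their median log2 ratio was -0.23, which became 0.60 when centered by GC content. Of 39 genes of RNA polymerase II and elongation 6 were higher and 11 lower, with a median of 0.27. Of 6 nuclear retained and long noncoding RNAs 2 were higher and 2 lower, with a median of 0.82, of 6 replication-dependent histone genes 1 was higher and 3 lower, with a median of -0.84, and of 4 genes of the MYC family and its partners 0 were higher and 1 lower, with a median of -0.44.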
